A study of Saccharomyces cerevisiae with 16 samples.

Results

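Yeast cells that lack the enzyme Set1 were set against yeast cells that keep the enzyme but lack the residue it acts on, and the changes in mRNA that both mutants share were separated from those of one mutant. The comparison sets 8 of the 16 arrays of the series against each other, the 4 labelled set1 and the 4 labelled H3K4A, chosen by their titles. The other arrays are of the mutants set1htz1 and set1htz1sir2, named for HTZ1 and SIR2 beside SET1. They entered the same fit for the dye term, the error and the choice of genes tested, and are described on their own near the end of these results. The set1 strain is named for its mutated SET1 gene, and in H3K4A lysine 4 of histone H3 is replaced by alanine. The sources used here give no strain background, no selection markers and no copy number of the histone genes. Each array carried cDNA of a mutant culture in one dye and of a paired wild-type culture in the other, so that all values are log2 ratios of mutant over wild type. Cultures were grown at 30 C in rich medium with added adenine and, per the deposited description, tryptophan, and were harvested in exponential growth at an OD600 of 0.7. The 4 arrays of a mutant are described as independent biological replicates, and the mutant was labelled with Cy5 on the odd-numbered arrays (1 and 3) and with Cy3 on the even-numbered ones (2 and 4). By that description the set1 cDNA came from purified mRNA and the H3K4A cDNA from total RNA, but the labels name polyA RNA throughout, so mutant and RNA input cannot be told apart in any difference between the mutants.

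Set1 is the catalytic subunit of COMPASS, the complex that places all mono-, di- and trimethylation on lysine 4 of histone H3 in budding yeast. Trimethylation marks the start of transcribed genes, and loss of the enzyme is known to weaken silencing near telomeres and to raise genes that are kept low during growth, such as those of sporulation. An alanine at this position cannot be methylated by any enzyme, and it also replaces the lysine that other modifications or binding proteins could use, while loss of Set1 also removes whatever the enzyme does on other substrates. Comparing the mutants asks which changes follow both ways of losing the mark. In RNA from whole cultures, fewer cells that express a gene and less RNA per cell cannot be told apart.

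Between 5592 and 5802 of 6282 array entries had a value on each of the 8 arrays, and array medians lay between -0.04 and 0.03. The log2 ratios spread with an SD of 0.410 to 0.526 on the set1 arrays and 0.248 to 0.429 on the H3K4A arrays. The dye left a strong trace: arrays of set1 correlated across genes at 0.734 and 0.798 within a dye but between -0.268 and 0.0904 across dyes. For H3K4A the correlations were 0.0924 and 0.363 within a dye and -0.276 to 0.615 across dyes, with arrays 1 and 4 alike and arrays 2 and 3 alike. Arrays of set1 and H3K4A with the same dye correlated at 0.119 to 0.290, and those with different dyes at -0.160 to 0.0284. Genes are not independent replicates, so these values only describe the arrays. The fit carried a dye term, and each mutant has 2 arrays of each orientation.

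The deleted gene checked the labels. SET1 lay at -2.06, -2.94, -2.94 and -2.74 on set1 arrays 1 to 4, and at 0.04, -0.31, -0.18 and -0.11 on H3K4A arrays 1 to 4. It was low on every set1 array and on none of the H3K4A arrays, and the fitted difference, H3K4A minus set1, was 2.53 ± 0.21 (SE, adjusted p = 1.4e-06) by limma's moderated test with Benjamini-Hochberg adjustment, which also holds for the adjusted p-values below. A codon change in histone H3 leaves no sign on such an array. HHT2, one of the gene pair that encodes histone H3, was nevertheless at 1.28, 1.50, 1.63 and 1.41 in H3K4A against -0.30, -0.12, 0.01 and -0.94 in set1. Its neighbour HHF2, which encodes histone H4, was at 0.25, 0.96, 0.88 and 0.85 in H3K4A against -0.10, 0.03, -0.36 and -0.06 in set1, so array 1 of H3K4A gave the lowest of its values. The differences were 1.79 ± 0.17 (SE, adjusted p = 7.8e-06) for HHT2 and 0.86 ± 0.16 (SE, adjusted p = 0.0025) for HHF2, whereas HHT1, the other H3 gene, differed by 0.02 ± 0.20 with an adjusted p of 0.97; HHT1 and HHT2 are near-identical in their coding sequence and may share signal. TRP1, a gene of tryptophan synthesis that is often used as a marker, was at 1.89, 2.23, 2.21 and 2.26 in H3K4A and 0.14, -0.03, -0.06 and 0.58 in set1. Another frequent marker, URA3, was at -2.48, -1.23 and -1.08 on the 3 H3K4A arrays with a value and had none on set1 arrays. In set1, HIS3, a histidine synthesis gene also used as a marker, was at 0.88, 0.92, 0.97 and 0.89, against -0.44, 0.28, 0.29 and -0.23 in H3K4A. Whether these marker genes differ through strain construction was not tested.

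Of 5147 genes tested, 386 (7.5%) differed between H3K4A and set1 at an adjusted p under 0.05, 211 (4.1%) higher in H3K4A and 175 (3.4%) lower. Of these, 24 were at least 2-fold higher and 25 at least 2-fold lower. Against wild type, 970 genes (18.8%) changed in set1, with 466 up (9.05%) and 504 down (9.79%), and 216 (4.2%) changed in H3K4A, with 185 up (3.59%) and 31 down (0.602%). After quantile normalization, which gives all arrays the same spread, H3K4A had 786 calls, 58.3% of them up in place of 85.6%. Both comparisons use the same error per gene, and the median absolute log2 change was 0.155 in set1 and 0.110 in H3K4A. A change of 2-fold or more was reached by 32 genes up and 3 down in set1 and by 10 up and 1 down in H3K4A. The fit pools the spread of all 16 arrays, and the arrays of set1 and H3K4A scatter more than the pool: residual SDs were 0.289 and 0.284, against 0.218 and 0.184 in the other 2 mutants, set1htz1 and set1htz1sir2. With a dye term per group the SD was 0.220 in set1, near the 0.206 of set1htz1, but 0.278 in H3K4A. With each group weighted by its own spread 138 genes differed, and with the 8 arrays alone 103. With the array number as a replicate block in place of the dye, 45 genes differed. Leaving out H3K4A array 4 gave 246 differences and 129 calls in H3K4A, and leaving out set1 array 4 gave 595 calls in set1. A set of 84 genes (1.63%), 46 higher and 38 lower in H3K4A, were called in the pooled fit, with weights and on the 8 arrays alone, and a gene in that number is called robust here. All 386 kept their sign in each dye orientation taken by itself, but the calls rest on these same arrays, so this is no independent check. The 386 also kept their sign with weights, on the 8 arrays alone and under the block. In those fits a gene with every value keeps its fitted difference by design and only the error changes, so the sign is no check there. The difference depended on the dye for 376 genes (7.31%), 12 of them among the 386. The arrays of the mutants did not overlap for 275 of the 386, and for 489 (9.5%) of all genes tested.

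The calls were sorted into classes that rest on the test of the difference itself. A change was shared when both mutants were called in the same direction and their difference was not (66 genes), and shared but unequal when the difference was called too (15 genes). It was particular to one mutant when that mutant and the difference were called and the other mutant was not, which gave 263 genes for set1 and 58 for H3K4A. In 17 genes the mutants were called in opposite directions. Another 669 genes were called in one mutant with no call on the difference, and these cannot be placed. Of the 609 of them called in set1, 464 had the same sign in H3K4A, and of the 60 called in H3K4A, 49 had the same sign in set1. A further 33 genes differed between the mutants without a call against wild type. Together, 81 genes were called in the same direction in both mutants, which is 37.5% of the H3K4A calls and 8.35% of the set1 calls. The class sizes rest in part on single arrays: shared genes numbered 41, 42 and 39 without H3K4A array 2, 3 or 4, and those particular to set1 numbered 158 without H3K4A array 4 and 170 without set1 array 4. The median 95% confidence interval of a difference reached 0.33 to either side on the log2 scale, so a shared call leaves room for unequal changes of that size.

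**Figure D1:**
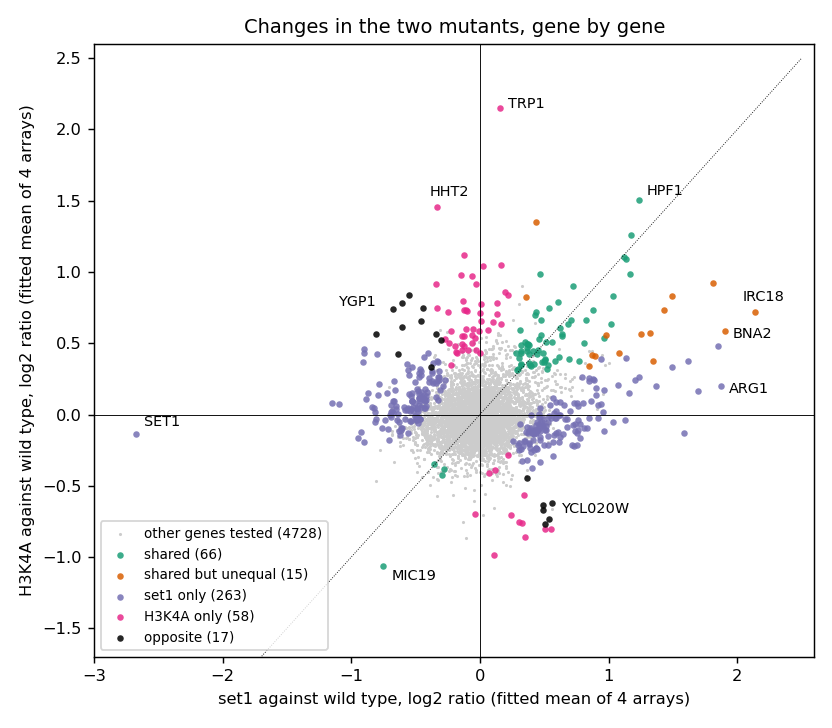
Fitted log2 change against wild type in set1 (horizontal) and in H3K4A (vertical) for 5147 genes, each fitted on the 3 or 4 arrays per mutant with a value, with the dye taken out. Colours mark the classes with their gene numbers, the dotted line marks equal change, and the legend's other genes tested include undecided genes. Shared genes lie along the line in the upper right, genes of one mutant along an axis, and the 17 opposite genes in the upper left and lower right.

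The shared changes were rises in 62 of 66 genes, led by genes of thiamine synthesis, wall and spore proteins and seripauperin genes. THI5, THI11 and THI12, near-identical genes for the pyrimidine part of thiamine, and THI4, for its thiazole ring, rose in both mutants. THI5 lay at 1.37, 0.94, 1.14 and 1.25 in set1 and at 1.42, 1.19 and 1.13 on the 3 H3K4A arrays with a value. THI12 lay at 1.34, 0.89, 1.34 and 0.92 in set1 and 1.10, 1.12, 1.23 and 0.98 in H3K4A, and the ranges overlapped for both genes. The difference was 0.08 ± 0.15 for THI5 (adjusted p = 0.79) and -0.01 ± 0.12 for THI12 (adjusted p = 0.96), with 95% confidence intervals of -0.23 to 0.39 and -0.27 to 0.24. Of 19 thiamine genes tested, 7 rose in set1 and 6 in H3K4A and none fell in either, beside rises in 9.05% and 3.59% of all genes. SNZ3, a gene of the vitamin B6 family that is expressed with them, rose by 0.42 and 0.35. The list's median change was 0.23 in set1 and 0.20 in H3K4A, against -0.02 over all genes in both. One thiamine-list gene differed, PHO3, an acid phosphatase that acts on thiamine phosphates, at -0.17, -0.49, 0.54 and -0.12 in set1 and 0.95, 0.23, 0.80 and 0.26 in H3K4A.

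HPF1, a mannoprotein of the cell wall, had the largest shared rise. It lay at 1.71, 0.84, 1.49 and 0.89 in set1 and 1.33, 1.38, 1.67 and 1.66 in H3K4A, and the difference of 0.28 ± 0.18 had an adjusted p of 0.4. YPS6, a yapsin protease anchored at the cell surface, lay at 0.96, 0.97, 1.10 and 1.12 in set1 and at 1.23, 0.66, 0.69 and 0.75 in H3K4A. DIT1, which makes the dityrosine precursor of the spore wall, lay at 0.75, 0.67, 1.01 and 1.09 in set1 and at 0.67, 0.87, 0.59 and 0.80 in H3K4A. These genes were above 0 on all 8 arrays, and the difference was called neither for YPS6 (adjusted p = 0.39) nor for DIT1 (adjusted p = 0.57). LDS1, a gene of spore wall formation, changed by 0.70 and 0.66, HXT10, of the hexose transporter family, by 0.72 and 0.91, the carnitine carrier gene CRC1 by 0.82 and 0.66, and the dihydroorotase gene URA4 by 0.47 and 0.56, in set1 and H3K4A respectively. RNR4, a subunit of ribonucleotide reductase, changed by 0.58 and 0.38. Only 4 shared genes fell. MIC19, part of the complex that organises mitochondrial cristae, lay at -0.81, -0.30, -0.92 and -0.97 in set1 and -1.60, -0.64, -0.89 and -1.12 in H3K4A. The other 3 were NIS1 (-0.29 and -0.43), the magnesium transporter gene ALR1 (-0.28 and -0.38) and the mevalonate kinase gene ERG12 (-0.36 and -0.35).

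The seripauperin (PAU) family, near-identical genes found mostly near telomeres whose probes may pick up each other's signal, was mostly called in set1. Of 19 members tested, 18 rose in set1 and 10 in H3K4A, none fell, and 9 met the rule for a shared change. Over all genes, 9.05% rose in set1 and 3.59% in H3K4A. The family median was 0.47 in set1 and 0.34 in H3K4A, and per array it ran from 0.41 to 0.54 in set1 and from 0.20 to 0.44 in H3K4A. PAU22 alone differed, at 0.16, 0.52, 0.11 and 1.09 in set1 and -0.05, -0.21, -0.52 and 0.07 in H3K4A, by -0.65 ± 0.16 (SE, adjusted p = 0.02). Genes near chromosome ends, taken as the 10 outermost ORF names of each arm, made up 253 (4.92%) of the genes tested. They made up 22 of the 62 shared rises (35.5%), 24 of the 132 rises particular to set1 (18.2%), 7 of the 46 rises particular to H3K4A (15.2%) and 4 of the 15 shared but unequal changes. Among the falls particular to set1 their share was 4.58%. Of the 253, 88 rose and 12 fell in set1, and 44 rose and 1 fell in H3K4A. The COS family, membrane proteins encoded next to telomeres, had none of 9 members called in set1, whereas 4 rose in H3K4A, with medians of -0.04 and 0.38. COS3 was the member whose difference was called, at 0.00, -0.18, 0.07 and -0.01 in set1 and 0.57, 0.34, 0.44 and 0.45 in H3K4A.

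In 13 of the 15 shared but unequal genes the rise was larger without the enzyme than without the residue. Changes were larger in set1 over all genes too, with a median absolute log2 change of 0.155 against 0.110 in H3K4A. Several of the 15 are genes of sporulation, and 1, BNA2, is of NAD synthesis. Of 11 NAD synthesis genes tested, 2 were lower in H3K4A than in set1 and none higher, where 3.4% and 4.1% of all genes were. The median difference of that list was -0.02. IRC18, a gene for an outer spore wall protein, lay at 2.04, 2.0, 2.33 and 2.19 in set1 and at 0.36, 0.96, 0.73 and 0.82 in H3K4A. Its neighbour LOH1, also of the outer spore wall, lay at 1.23, 1.43, 1.36 and 1.36 in set1 and at 0.06, 0.46, 0.38 and 0.61 in H3K4A. BNA2, which encodes the first enzyme from tryptophan to NAD, lay at 1.75, 1.94, 2.20 and 1.74 in set1 and at 0.68, 0.69, 0.57 and 0.41 in H3K4A. The lowest set1 array of each gene was above the highest H3K4A array. Differences were -1.42 ± 0.18 (SE, adjusted p = 9.2e-05) for IRC18, -0.97 ± 0.15 (SE, adjusted p = 0.00045) for LOH1 and -1.32 ± 0.15 (SE, adjusted p = 4.5e-05) for BNA2, and all 3 were robust. The only other robust gene of this class was YHR054C, part of a repeated segment, at 1.32 and 0.57. IRC18 and LOH1 lie side by side, and because the sources used here give neither strand nor sequence of the probes, their signals may not be independent.

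Smaller gaps of the same kind were found for HSP32, of the Hsp31 chaperone family (1.81 in set1 and 0.92 in H3K4A), GAS4, which builds spore wall glucan (1.08 and 0.43), SPS19, a peroxisomal reductase of sporulation (0.98 and 0.56), SMA1, of the spore membrane (0.90 and 0.41), the mannitol dehydrogenase-like gene DSF1 (1.50 and 0.83) and the arginine synthesis gene ARG7 (0.84 and 0.34). Of 25 genes of mid-sporulation tested, 9 rose and 2 fell in set1, 6 rose and none fell in H3K4A, and 6 were lower in H3K4A than in set1 with none higher. Over all genes, 9.05% rose in set1, 3.59% rose in H3K4A and 3.4% were lower in H3K4A than in set1. The list's median difference was -0.15, against 0.01 over all genes, but it depended on the dye, at -0.30 on the Cy5 arrays and 0.01 on the Cy3 arrays, and it was -0.07 after quantile normalization. DIT2, which completes the dityrosine precursor and lies beside DIT1, was among the 6, at 1.02, 0.76, 1.56 and 0.94 in set1 and 0.10, 0.04, 0.21 and 0.47 in H3K4A. URA1, dihydroorotate dehydrogenase of pyrimidine synthesis, had the reverse order, 0.95, -0.22, 1.23 and -0.23 in set1 and 1.67, 1.09, 1.35 and 1.30 in H3K4A. The set1 values of URA1 split by dye, positive on the Cy5 arrays and negative on the Cy3 arrays, and its difference of 0.92 ± 0.19 (SE, adjusted p = 0.0063) was not robust.

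**Figure D2:**
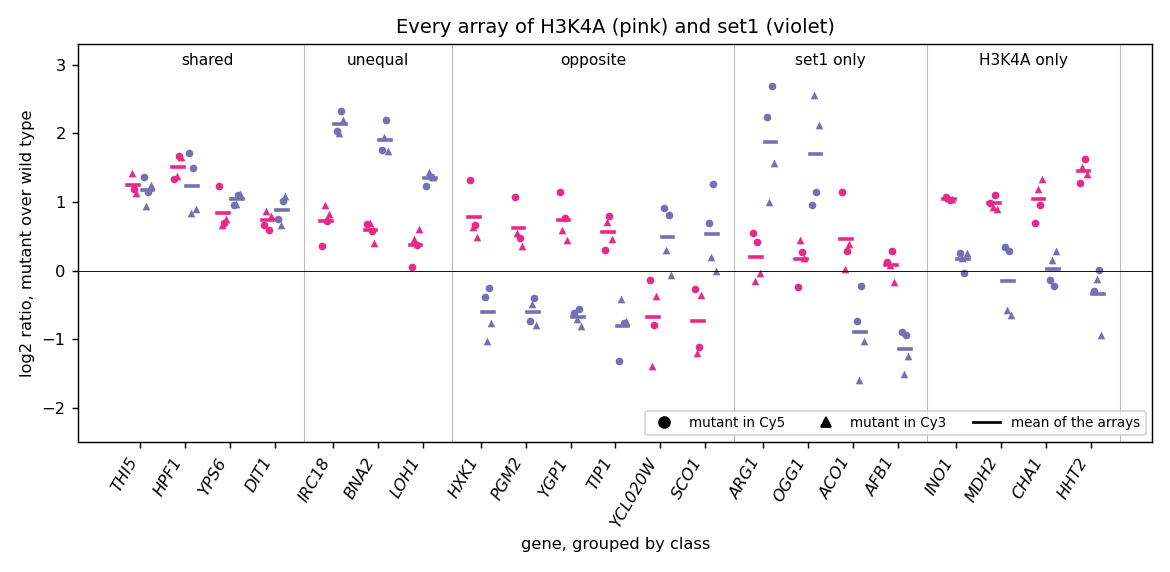
Log2 ratio of mutant over wild type (vertical) on every array of H3K4A (pink) and set1 (violet) for genes of each class, with circles for the mutant in Cy5, triangles for the mutant in Cy3 and bars for the mean of the arrays with a value. Shared genes overlap above 0, IRC18, BNA2 and LOH1 stand higher in set1, and the opposite genes HXK1, PGM2, YGP1 and TIP1 lie above 0 on every H3K4A array and below 0 on every set1 array.

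Of the 17 genes called in opposite directions, 16 had a robust difference. Among the 17, 11 fell in set1 and rose in H3K4A, and they include genes of hexose phosphorylation, carbohydrate storage and the cell wall. HXK1, a hexokinase, lay at -0.38, -1.03, -0.25 and -0.76 in set1 and 1.33, 0.64, 0.67 and 0.49 in H3K4A. PGM2, the main phosphoglucomutase, lay at -0.74, -0.49, -0.40 and -0.79 in set1 and at 1.08, 0.55, 0.48 and 0.35 in H3K4A. TSL1, a subunit of trehalose synthase, lay at -0.40, -0.43, -0.30 and -0.25 in set1 and at 0.83, 0.38, 0.44 and 0.61 in H3K4A. Every set1 array was below 0 and every H3K4A array above 0 for these genes, and array 1 gave the highest H3K4A value of each. The differences were 1.39 ± 0.18 (SE, adjusted p = 0.00013) for HXK1, 1.22 ± 0.15 (SE, adjusted p = 6.7e-05) for PGM2 and 0.91 ± 0.15 (SE, adjusted p = 0.0012) for TSL1. YGP1, a secreted glycoprotein made when nutrients run low, lay at -0.62, -0.71, -0.56 and -0.81 in set1 and 1.15, 0.59, 0.77 and 0.45 in H3K4A. TIP1, a cell wall mannoprotein, lay at -1.32, -0.42, -0.76 and -0.74 in set1 and at 0.30, 0.71, 0.79 and 0.47 in H3K4A, and CWP1, another, at -0.45, -0.84, -0.27 and -0.20 in set1 and at 0.63, 0.79, 1.03 and 0.55 in H3K4A. ALD4, the mitochondrial aldehyde dehydrogenase, lay at -0.54, -0.47, -0.17 and -0.64 in set1 and at 0.96, 0.55, 0.64 and 0.49 in H3K4A. These too kept apart on all 8 arrays, by 1.41 ± 0.16 (SE, adjusted p = 4.7e-05) for YGP1, 1.38 ± 0.18 (SE, adjusted p = 0.00018) for TIP1, 1.19 ± 0.16 (SE, adjusted p = 0.00018) for CWP1 and 1.11 ± 0.12 (SE, adjusted p = 4.0e-05) for ALD4. The other 4 were PRY1, a secreted sterol-binding protein (-0.56 and 0.84), the membrane protein gene PNS1 (-0.64 and 0.43), YBR184W (-0.30 and 0.52) and YNR042W (-0.38 and 0.34). The difference of all 17 stayed called when any one of the 8 arrays was left out.

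The lists around these genes also held more genes higher in H3K4A than lower, against 4.1% higher and 3.4% lower over all genes. The median difference over all genes was 0.01. Of 18 carbohydrate storage genes tested, 9 were higher in H3K4A than in set1 and 1 was lower, with a median difference of 0.56. In H3K4A 8 rose and none fell, and in set1 2 rose and 4 fell. Over all genes 3.59% rose and 0.602% fell in H3K4A, and 9.05% rose and 9.79% fell in set1. Besides HXK1, PGM2 and TSL1, the 9 included the glucokinase gene GLK1 (1.26), the glycogen synthase genes GSY1 (0.75) and GSY2 (0.58) and the branching enzyme gene GLC3 (0.57), and the exception was PGM1, the minor phosphoglucomutase, at -0.56. Of 24 cell wall genes, 9 were higher and 1 lower, with a median difference of 0.41, and the lower one was DAN1 at -0.72. In H3K4A 12 of the 24 rose and none fell, with a median of 0.42. In set1 4 rose and 5 fell, with a median of -0.02, so that list had no common fall in set1. Of 28 general stress genes, 8 were higher and none lower, with a median of 0.47, among them the catalase gene CTT1 (0.74) and the small heat shock genes HSP12 (1.04) and HSP26 (0.66). Of the 28, 9 rose and none fell in H3K4A, and 2 rose and 5 fell in set1. YGP1 is counted in both of these lists. The list medians of carbohydrate storage were -0.25 to -0.06 on the set1 arrays and 0.35 to 0.67 on the H3K4A arrays, so they did not overlap.

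The 6 genes that rose in set1 and fell in H3K4A included a pair of nuclear genes for mitochondrial proteins and 3 open reading frames of Ty retrotransposons. SCO1, which delivers copper to cytochrome c oxidase, lay at 0.70, 0.20, 1.26 and -0.01 in set1 and -0.26, -1.19, -1.11 and -0.35 in H3K4A. IMP2, a peptidase of the mitochondrial inner membrane, lay at 0.50, 0.26, 0.87 and 0.62 in set1 and at 0.04, -1.21, -0.79 and -0.54 in H3K4A. The arrays did not overlap for either gene, and the differences were -1.27 ± 0.23 (SE, adjusted p = 0.0027) and -1.19 ± 0.19 (SE, adjusted p = 0.0014). APQ13 was the sixth gene, with 0.37 in set1 and -0.45 in H3K4A. Of the Ty frames, YCL020W lay at 0.91, 0.30, 0.81 and -0.07 in set1 and -0.14, -1.40, -0.79 and -0.37 in H3K4A, with a difference of -1.16 ± 0.20 (SE, adjusted p = 0.0016), and YJR028W and YFLTYA differed by -1.27 and -1.13.

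Over the whole list of Ty frames, 11 of 22 tested were lower in H3K4A than in set1 and none was higher, and 4 of them were robust, where 3.4% of all genes were lower and 1.63% robust. The median was -0.53 in H3K4A, where 10 fell and none rose, and 0.32 in set1, where 3 rose and 1 fell. These frames are copies of a few elements and share sequence, so their values are not independent. The arrays were uneven: the list median was 0.31 on H3K4A array 1 and -1.22, -0.69 and -0.52 on arrays 2, 3 and 4, and 0.74, 0.00, 0.49 and -0.15 on set1 arrays 1 to 4. The set1 medians were thus high in Cy5 and near 0 in Cy3. YMR051C, a robust member, lay at 1.12, -0.54, 1.0 and -0.18 in set1 and 0.19, -1.93, -0.81 and -0.87 in H3K4A, so its ranges overlapped although the fit gave a difference of -1.21 ± 0.22 (SE, adjusted p = 0.0024) after the dye was taken out. Ty transcripts are abundant polyadenylated RNA, and the part of the RNA input in these values was not tested.

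**Figure D3:**
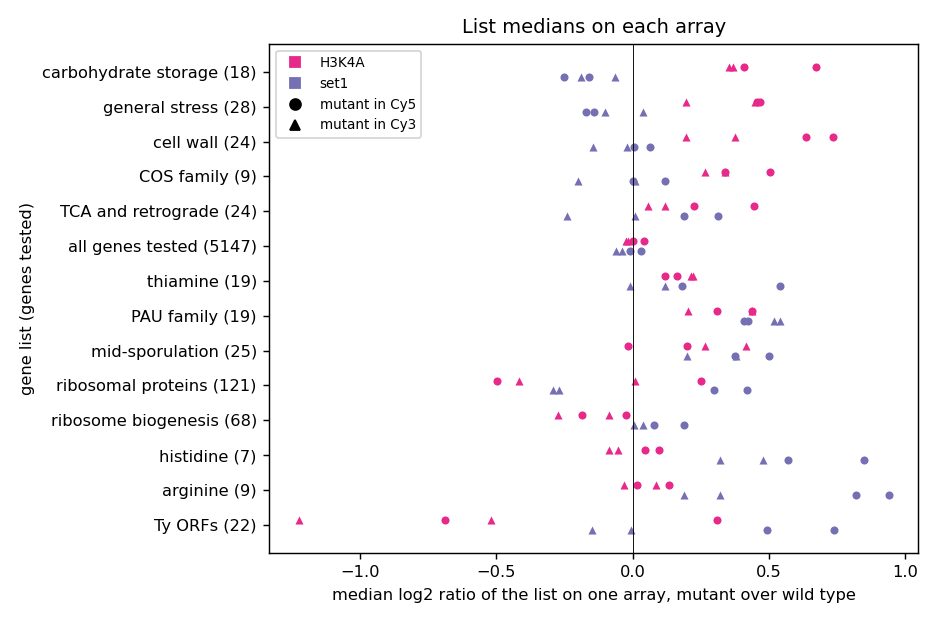
Median log2 ratio of mutant over wild type of 13 gene lists and of all genes tested (horizontal) on each array of H3K4A (pink) and set1 (violet), with circles for the mutant in Cy5 and triangles for Cy3, and the number of genes tested in brackets. Carbohydrate storage, general stress and cell wall genes lie to the right on H3K4A arrays, arginine and histidine genes lie to the right on set1 arrays, and ribosomal protein and Ty medians spread widely among arrays of one mutant.

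Among the 132 rises particular to set1 were genes of arginine and histidine synthesis. For the list counts that follow, 9.05% of all genes rose in set1, 3.59% rose in H3K4A and 3.4% were lower in H3K4A than in set1. ARG1, argininosuccinate synthetase, lay at 2.24, 1.0, 2.69 and 1.56 in set1 and 0.55, -0.15, 0.42 and -0.03 in H3K4A. ARG3, ornithine carbamoyltransferase, lay at 1.14, 0.56, 1.32 and 0.84 in set1 and at 0.02, 0.17, 0.24 and 0.25 in H3K4A, and HIS4, an enzyme of several steps to histidine, at 0.57, 0.86, 0.85 and 0.97 in set1 and at 0.28, -0.42, -0.14 and -0.08 in H3K4A. The mutants did not overlap for any of the 3, and the differences were -1.68 ± 0.23 (SE, adjusted p = 0.0002), -0.80 ± 0.14 (SE, adjusted p = 0.0019) and -0.90 ± 0.15 (SE, adjusted p = 0.0012). Of 9 arginine genes, 6 rose in set1 and 1 in H3K4A, and 4 were lower in H3K4A than in set1, ARG1 and ARG3 among them, with a median difference of -0.47. Of 7 histidine genes, 5 rose in set1 and none in H3K4A, and 2 differed, HIS4 and HIS3, with a median difference of -0.47. HIS3 is the marker gene described above, and the part of strain construction in its difference was not tested. Among other amino acid lists, no gene of 9 for branched amino acids or 9 for lysine differed, and 1 of 13 for aromatic amino acids did (TRP1).

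The largest other rises particular to set1 included a repair enzyme and a vitamin transporter. OGG1, the glycosylase that removes oxidised guanine, lay at 0.96, 2.56, 1.14 and 2.12 in set1 and -0.23, 0.44, 0.27 and 0.18 in H3K4A, and was higher in set1 on the Cy3 arrays. TNA1, the nicotinic acid permease that feeds NAD synthesis, lay at 1.21, 1.15, 1.52 and 1.60 in set1 and at 0.62, -0.02, 0.06 and 0.13 in H3K4A. YMR244W, a gene of unknown function, lay at 1.81, 1.43, 1.91 and 2.25 in set1 and, on 3 arrays, at 0.44, 0.53 and 0.45 in H3K4A. All 3 kept apart on every array, by -1.53 ± 0.26 (SE, adjusted p = 0.0016), -1.17 ± 0.20 (SE, adjusted p = 0.0016) and -1.37 ± 0.19 (SE, adjusted p = 0.00031). YGR259C, an ORF that overlaps TNA1, had the values 1.15, 1.60, 1.29 and 1.94 in set1 and 1.30, -0.17, -0.14 and 0.35 in H3K4A, with the high value of H3K4A array 1 apart from the rest. SOH1, a subunit of Mediator (-1.01), OPT2, of the oligopeptide transporter family (-0.97), ERG28, a scaffold of sterol synthesis (-0.86), GAL3, the galactose sensor (-0.93), GAL1, galactokinase (-0.67), and RPL32, a ribosomal protein gene (-0.96), were also lower in H3K4A than in set1. RPL32 was 1 of 121 ribosomal protein genes to differ. The medians of that list were -0.50, 0.01, 0.25 and -0.41 on the H3K4A arrays and 0.30, -0.29, 0.42 and -0.27 on the set1 arrays, which spread across 0 in both mutants. Of 68 ribosome biogenesis genes, 8 were lower in H3K4A than in set1, where 3.4% of all genes were, and none higher, with a median difference of -0.20.

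Falls particular to set1 numbered 131 and included the first steps of the tricarboxylic acid cycle. ACO1, aconitase, lay at -0.74, -1.60, -0.23 and -1.03 in set1 and 1.14, 0.02, 0.29 and 0.39 in H3K4A. IDH1, a subunit of isocitrate dehydrogenase, lay at -0.64, -0.62, -0.60 and -0.81 in set1 and at 0.60, 0.06, 0.23 and 0.06 in H3K4A, and IDH2, its partner subunit, at -0.23, -1.29, -0.27 and -1.40 in set1 and at 0.93, 0.12, 0.38 and 0.28 in H3K4A. All set1 values were below all H3K4A values, and the differences were 1.36 ± 0.18 (SE, adjusted p = 0.00018), 0.90 ± 0.12 (SE, adjusted p = 0.00018) and 1.22 ± 0.17 (SE, adjusted p = 0.00019). In H3K4A each gene was highest on array 1, and none was called against wild type there, though ACO1 (0.46, adjusted p = 0.051) was near the threshold. YOR135C, which overlaps IDH2, differed by 1.33 ± 0.18 (SE, adjusted p = 0.00019), and the strand of either signal is not known. NDE1, the NADH dehydrogenase that faces the cytosol from the mitochondrial inner membrane, lay at -0.79, -0.94, -0.94 and -0.97 in set1 and at 0.89, 0.21, 0.13 and 0.23 in H3K4A, a difference of 1.28 ± 0.18 (SE, adjusted p = 0.00025). Of 28 respiration genes NDE1 was the one that differed. Of 24 genes of the cycle and the retrograde pathway, 4 were higher in H3K4A, where 4.1% of all genes were, and none lower, namely ACO1, IDH1, IDH2 and the cytosolic malate dehydrogenase gene MDH2.

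Outside metabolism, AFB1, a secreted protein of alpha cells that binds a-factor, lay at -0.89, -1.51, -0.94 and -1.25 in set1 and 0.12, 0.09, 0.28 and -0.16 in H3K4A. PER33, a membrane protein of the endoplasmic reticulum, lay at -0.92, -1.40, -0.94 and -1.12 in set1 and at 0.11, 0.06, 0.15 and 0.00 in H3K4A, and the peptide transporter gene PTR2 at -0.64, -0.92, -0.79 and -0.79 in set1 and at 0.59, 0.09, 0.11 and 0.07 in H3K4A. The differences were 1.23 ± 0.15 (SE, adjusted p = 6.7e-05), 1.17 ± 0.13 (SE, adjusted p = 4.5e-05) and 1.0 ± 0.15 (SE, adjusted p = 0.00039), with no overlap between the mutants. NFG1, a negative regulator of filamentous growth, differed by 1.02 ± 0.14 (SE, adjusted p = 0.0002). Of 14 pheromone response genes tested, 2 were higher in H3K4A than in set1 and 1 lower, where 4.1% and 3.4% of all genes were. PRM5 differed by 0.76 and KAR5, of nuclear fusion, by 0.55, while FUS2, of cell fusion, differed by -0.61. Of 9 haploid-specific genes 1 was higher and none lower, SST2, which turns off pheromone signalling, at 0.70. Of these genes only PRM5 was robust, and KAR5 differed by 0.12 in Cy5 and 0.98 in Cy3. Of 3 genes tested of the a-specific list none differed. The only tested gene of the alpha-specific list, SAG1, the alpha-agglutinin, was higher in H3K4A, at 0.89, 0.28, 0.64 and 0.53 against 0.04, -0.27, 0.19 and 0.00 in set1.

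H3K4A had 46 rises of its own, with 13 robust genes among them. CHA1, a serine and threonine deaminase encoded beside the silent locus HML, lay at 0.69, 1.19, 0.95 and 1.33 in H3K4A and -0.14, 0.16, -0.22 and 0.29 in set1. INO1, which makes inositol phosphate, lay at 1.07, 1.06, 1.03 and 1.04 in H3K4A and at 0.26, 0.19, -0.03 and 0.25 in set1. MDH2 lay at 0.99, 0.93, 1.10 and 0.90 in H3K4A and at 0.34, -0.58, 0.29 and -0.64 in set1, the set1 values being positive in Cy5 and negative in Cy3. Each H3K4A array was above each set1 array, and the differences were 1.02 ± 0.12 (SE, adjusted p = 5.3e-05), 0.88 ± 0.14 (SE, adjusted p = 0.00063) and 1.13 ± 0.17 (SE, adjusted p = 0.00065). GLK1, the glucokinase, lay at 1.29, 0.87, 0.59 and 0.90 in H3K4A and at -0.62, 0.32, -0.86 and -0.20 in set1, and PHO5, the secreted acid phosphatase of phosphate starvation, at 0.80, 0.55, 0.53 and 0.47 in H3K4A and at -0.12, -0.47, 0.19 and -0.51 in set1. These differed by 1.26 ± 0.19 (SE, adjusted p = 0.00071) and 0.81 ± 0.13 (SE, adjusted p = 0.0014). AAD6, of the aryl-alcohol dehydrogenase family, differed by 1.25 ± 0.16 (SE, adjusted p = 0.00016). The gene YDL218W, of unknown function, lay between 0.85 and 0.96 on all H3K4A arrays and at -0.36, 0.12, -0.45 and 0.58 on the set1 arrays.

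Genes that flank the silent mating loci HML and HMR were a small part of this class. Of 15 tested on the list of flanking genes, 3 were higher in H3K4A than in set1 and none lower, beside 4.1% higher and 3.4% lower over all genes. The list is wider than its name: PMU1 lies on another chromosome, and DCC1 and NFS1 lie far from HML, next to LEU2. No difference was called for PMU1, DCC1 or NFS1. The genes called higher all lie near a silent locus. They were CHA1, the glycerophosphoinositol transporter gene GIT1 (1.15, 0.64, 0.53 and 1.04 in H3K4A and 0.19, 0.24, 0.04 and 0.40 in set1) and AAD3 (0.61, 0.52, 0.35 and 0.51 in H3K4A and 0.12, -0.18, -0.15 and -0.34 in set1). GIT1 also belongs to the phosphate list, in which 3 of 18 were higher in H3K4A and none lower. The 3 were PHO5, GIT1 and CTF19. CTF19 encodes a kinetochore protein and is not a phosphate gene, so its call does not count for phosphate genes. Among stress and wall genes of the class, HSP26 lay at 0.81, 0.87, 1.03 and 0.73 in H3K4A and 0.12, 0.36, -0.12 and 0.43 in set1. SED1, a wall glycoprotein, lay at 1.76, 0.10, 0.96 and 0.18 in H3K4A and at -0.51, -0.23, -0.34 and -0.25 in set1, and its H3K4A values were high in Cy5 and low in Cy3. Neither HSP26 nor SED1 was robust. The 12 falls particular to H3K4A were mostly Ty frames, with 1 robust gene, YMR051C. Of the rest, SCP160, an RNA-binding protein, differed by -0.51, the transcription factor gene SUT2 by -0.50, the kinase gene HRK1 by -0.48, YGR115C by -0.66 and YKL162C by -1.10.

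Among genes of the methylation machinery itself, the deleted gene SET1 was the only one called in the difference. Of 5 COMPASS genes tested, it was the one that differed. None of 10 other genes of the pathway to this mark, such as PAF1 complex and ubiquitination genes, and none of 12 genes for readers of the mark differed. LEO1, a subunit of the PAF1 complex, lay at -0.71, -0.84, -0.60 and -0.51 in set1, where it fell, and at -0.37, -0.42, -0.19 and -0.34 in H3K4A, where it was not called (adjusted p = 0.089). Its difference of 0.33 ± 0.15 had an adjusted p of 0.18. No gene of 6 for silencing factors, 10 for glycolysis, 13 for purine synthesis or 11 for the DNA damage response differed either. Over all genes 7.5% differed, so lists of this size without a call are near that share and show nothing particular to their genes. A missed threshold does not show equal levels, since the interval of a difference was about as wide as given above.

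The mutants set1htz1 and set1htz1sir2 also lack Set1, together with the histone variant H2A.Z, encoded by HTZ1, and in the latter the silencing deacetylase Sir2. Their arrays were not used to place a gene in a class, although they share the estimate of error, and were made from mRNA by the deposited description. Over all genes tested, 47.5% changed in set1htz1, 21.2% up and 26.3% down, and 50.4% changed in set1htz1sir2, 24.1% up and 26.3% down. Of the 62 shared rises, 51 rose and none fell in set1htz1, and 50 rose and 2 fell in set1htz1sir2. Of the 15 shared but unequal genes, 14 rose in each. Of the 132 rises particular to set1, 85 rose and 2 fell in set1htz1 and 71 rose and 7 fell in set1htz1sir2. Of the 131 falls particular to set1, 83 fell and 12 rose in set1htz1 and 75 fell and 16 rose in set1htz1sir2. The set1 classes thus kept their direction in most members in both strains. Of the 46 rises particular to H3K4A, 21 rose and 6 fell in set1htz1, and 17 rose and 9 fell in set1htz1sir2. The 11 opposite genes that fell in set1 were mixed, with 5 up and 2 down in set1htz1 and 5 up and 5 down in set1htz1sir2. The 12 falls particular to H3K4A, mostly Ty frames, gave 7 rises and 1 fall in set1htz1 and no rise and 8 falls in set1htz1sir2.

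**Figure D4:**
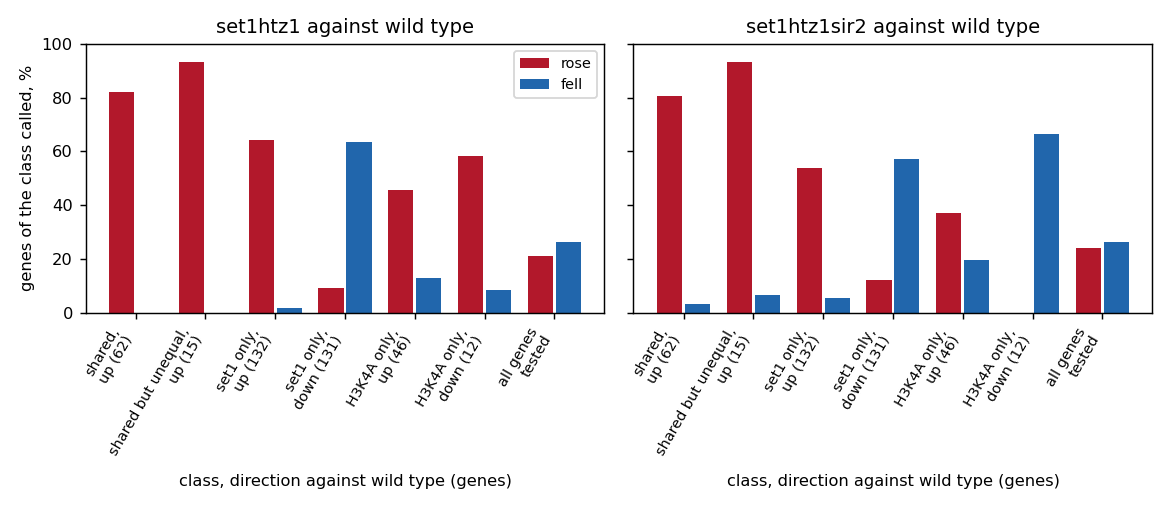
Share of the genes of a class, in percent (vertical), that rose (red) or fell (blue) at an adjusted p under 0.05 in set1htz1 (left) and set1htz1sir2 (right), with the number of genes of the class in brackets and all genes tested at the far right of each panel. Of the shared rises, 51 of 62 rose in set1htz1 and 50 in set1htz1sir2, and of the falls particular to H3K4A, 7 of 12 rose in set1htz1 and 8 of 12 fell in set1htz1sir2.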

How the data were processed

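Relative mRNA levels were measured on spotted 2-colour arrays. Spots were quantified in GenePix 3.0, poor spots (regression R2 below 0.75, or dim) were dropped and ratios were scaled to total signal, per the deposited description. The values deposited by the authors are log2 ratios of mutant over wild type. The base is not stated; it was settled from the values, which are whole steps of a ratio only under base 2 (tolerance 0.1 of a step for H3K4A and 0.0051 for set1), and the Cy3 arrays of H3K4A had already been turned by the authors. Of 6282 entries, 296 begin with a z that the sources used here do not explain. Entries of 1 ORF were averaged, giving 6074 genes. A RefSeq gene table (assembly R64) matched 5539, gave symbols to 5031 and served only for names.

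limma 3.58.1 (R 4.3.3) fitted all 16 arrays with 4 group means and 1 shared dye term per gene, for the 5147 genes with values on at least 3 of 4 arrays of every group. A call is a 2-sided p under 0.05 after Benjamini-Hochberg adjustment over all genes. The steps were tested on simulated data. Named genes are up to 12 per class and direction by size, histone and marker genes and up to 4 per list; other list members named with a value were chosen after their values were seen, as were URA3, STE3 and MF(ALPHA)1. Members and the 46 gene lists were chosen with earlier results of these data known. The list of Ty frames was rewritten by ORF name once the files were seen.

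Same-numbered arrays of set1 and H3K4A deviated together (r = 0.119, 0.283, 0.223 and 0.333), but the number also fixes the dye. Arrays of the same dye with different numbers did so too: r was 0.216, 0.298, 0.205 and 0.0796 for set1 arrays 1 to 4 with H3K4A arrays 3, 4, 1 and 2. After removing dye means, r of same-numbered arrays was -0.0723 for arrays 1 and 3 and 0.190 for arrays 2 and 4. A pairing by number beyond the dye thus had no common sign and was not settled. Alternatives covered scaling, dye, filters, weights, moderation, block and left-out arrays. Scanner intensities were not used here, and the number of arrays limits the precision.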

Additional observations from a re-analysis of the deposited data

Results flagged for a closer look

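The arrays of each mutant were checked gene by gene for a value far from the other 3, by Dixon's test, which flags about 1 in 20 groups by chance. Among 362 groups of named genes, 18 were singled out, which is about that share, so the number of flags is no more than chance gives. That total does not describe how the flags fall on single arrays, which was uneven. Of the 18, 9 came through all other arrays together and 9 through array 1 of H3K4A. On that array, with the median of the 4 arrays in brackets, the log2 ratios were -0.31 for NTG1 (0.13), 1.28 for RTN2 (0.66), 1.89 for TRP1 (2.22), 1.23 for YPS6 (0.72), 0.59 for PTR2 (0.10), 0.89 for NDE1 (0.22), 0.25 for HHF2 (0.86), -0.50 for YNL034W (0.08) and 0.71 for PNS1 (0.35). On array 2 of H3K4A they were -0.053 for PRM5 (0.11) and -0.41 for SRS2 (-0.16), and on array 4 the ratio of YJR012C was 0.087 (0.33). In set1, RNR4 was at 0.30 on array 2 (0.66), MIP6 at 0.71 on array 4 (0.92), MET3 at 0.06 on array 1 (-0.23), YJR012C at 0.16 on array 2 (-0.36), NDE1 at -0.79 on array 1 (-0.94) and CTF19 at -0.40 on array 4 (-0.18).

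The difference between H3K4A and set1 depended on the dye for 376 genes (7.31%) by limma's test of the interaction, at a Benjamini-Hochberg adjusted p under 0.05, but for 12 of the 386 genes called in the difference. Named genes among them had unequal differences in Cy5 and Cy3. They were -0.57 and -1.36 for RPL32, 1.78 and 0.38 for SED1, -1.25 and -0.12 for PES4, 0.42 and 1.42 for URA1, 0.12 and 0.98 for KAR5, -0.33 and -1.23 for RRP5, and -2.63 and -0.80 for YOL024W, always first for Cy5. Each kept its sign in both dyes, and the cause was not tested.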

How the results depend on the processing

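None of the 141 named genes called in the difference changed sign under an alternative that gave it a value, and the same 5147 genes passed with values on at least 2 of 4 arrays. For a gene with every value, the weights, the 8 arrays alone, the block and the moderation change only the error, so its sign is fixed there. The median difference of the mid-sporulation list went from -0.15 to 0.01 on Cy3 arrays, and that of all genes from 0.01 to -0.01 with median centring and with quantile normalization. Other list medians changed sign too. With quantile normalization the PAU median went from -0.11 to 0.06, the thiamine median from -0.04 to 0.13 and the subtelomeric median from -0.01 to 0.08. The thiamine median was -0.20 on Cy5 and 0.18 on Cy3 arrays, and that of ribosomal proteins -0.51 and 0.07. Of the set1 calls 48.0% were up, but 54.9% with median centring or with weights and 57.0% without set1 array 4. Counts of calls moved by over 1.5 times as follows, and the cause was not tested. Quantile normalization gave 786 calls in H3K4A, 130 shared genes (44 of them among the 66) and 233 particular to H3K4A. The 8 arrays alone gave 103 differences, 505 calls in set1, 94 in H3K4A, 31 shared, 68 particular to set1 and 19 to H3K4A. Without a dye term there were 212 differences, 136 calls in H3K4A, 43 shared, 147 particular to set1 and 32 to H3K4A. Cy5 arrays alone gave 1474 calls in set1, 89 in H3K4A, 31 shared and 22 particular to H3K4A, and Cy3 arrays alone 597 differences, 1785 calls in set1, 491 particular to set1 and 37 to H3K4A. Weights by group gave 138 differences, 457 calls in set1, 120 in H3K4A, 33 shared, 85 particular to set1 and 30 to H3K4A. With the array number as a replicate block in place of the dye, 45 genes differed, 42 of them among the 386.

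Leaving out each array in turn gave 246 to 398 differences, 595 to 1148 calls in set1, 129 to 249 in H3K4A, 39 to 70 shared, 158 to 275 particular to set1 and 41 to 68 to H3K4A. Without H3K4A array 4 there were 246 differences, 129 calls in H3K4A, 39 shared and 158 particular to set1. Without H3K4A array 2 or 3 there were 41 or 42 shared, and without set1 array 4 there were 595 calls in set1 and 170 particular to it. Of the 386 differences, 168 stayed called whichever array was left out. Chosen after seeing the data, H3K4A arrays 1 and 4 alone gave 104 particular to H3K4A. The 8 arrays with a dye term per group, also chosen then, gave 232 differences, 141 calls in H3K4A, 42 shared and 148 particular to set1, and a dye term per group with weights 106 calls in H3K4A and 34 shared. Of 141 named genes called in the difference, 64 stayed called on the 8 arrays alone, 79 with weights and 40 under the block.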

Other observations

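Genes called in the difference alone, with neither mutant called against wild type, lay to either side of wild type, and the difference reached 2-fold in 1 of them, the Ty frame YMR046C, fitted at 0.56 in set1 and -0.67 in H3K4A, a difference of -1.23. CTT1, the cytosolic catalase, was fitted at -0.37 in set1 and 0.36 in H3K4A, a difference of 0.74 ± 0.18 (SE, adjusted p = 0.020 by limma with Benjamini-Hochberg adjustment). The uridine permease gene FUI1 was fitted at -0.34 and 0.37. The ribosome biogenesis genes UTP10 and NOP7 went the other way, at 0.31 and -0.28 and at 0.29 and -0.24. None of the 33 genes of this kind was robust, and all 33 had opposite fitted signs in the mutants.

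Some genes had values in only 1 of the mutants and could not be compared. STE3, the a-factor receptor of alpha cells, lay at 1.07, 0.81, 1.05 and 1.06 on the set1 arrays and had no value on H3K4A arrays. MF(ALPHA)1, a gene for the alpha-factor pheromone, lay at 1.06, 1.37 and 1.29 on 3 set1 arrays and had none for H3K4A either. The rest of the alpha-specific list, with values in both mutants, did not follow in set1. MF(ALPHA)2 lay at 0.12, 0.36, -0.04 and 0.50 on the set1 arrays, SAG1 was fitted at -0.01 there, and AFB1, the alpha-cell gene described above, fell.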
